A study of Mus musculus with 40 samples.

Results

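The gastrocnemius of female mice with a large Lewis lung carcinoma (LLC) was compared with that of females without a tumor, over all 12573 genes of the deposited table. The members were chosen by their labels alone, as the 8 mice marked with a high tumor mass (HT) and the 8 mice marked as control (PBS), which makes 16 of the 40 sequenced libraries, each from 1 mouse. All mice were C57BL6/J females. HT mice had received LLC cells, a mouse lung cancer line that grows as an implanted tumor, at 8 weeks of age. They were taken 3 to 4 weeks later, when they were 11 to 12 weeks old and carried tumors of 2 g or more. PBS mice had received the saline vehicle and were taken at 12 weeks. A further group of 8 mice, given the same cells and taken 3 to 4 weeks later with tumors of 1.2 g or less (LT), is used where it shows how HT differs. By the methods of the study, mice were assigned to these groups by tumor mass, some of the earlier week moving into HT and some of the later week into LT, so that HT and LT were not matched for week and tumor mass and week cannot be told apart between them. The labels name a bilateral injection and the methods of the study the right hind flank, and the sources used here do not give the week of each HT mouse.

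In cachexia, muscle loses protein because breakdown exceeds synthesis. Proteins are tagged with ubiquitin by E3 ligases, of which Fbxo32 (atrogin-1) and Trim63 (MuRF1) are the best known in muscle, and the 26S proteasome degrades the tagged proteins, while autophagy removes organelles. FoxO factors, the glucocorticoid receptor, STAT3 downstream of IL-6 and NF-kB downstream of TNF are known to drive these genes. Mitochondria supply the ATP of the fibre through respiratory complexes I to V, and interferon gamma acts on most cells through its surface receptor.

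The libraries matched their tissue label. All 10 markers of the skeletal muscle fibre were in the table, and their summed level was 1930748 to 3119110 normalized reads in PBS and 1692173 to 2772413 in HT. A normalized read is an estimated read divided by the size factor of its library. Of the 10 markers 3 were lower in HT and 7 did not pass the test, among them Ckm (muscle creatine kinase), at 290331 to 481133 with a median of 375845 in PBS and 295272 to 430358 with a median of 323710 in HT. Of 28 markers of T, B and NK cells only 1, Cd28, was measured. The estimated depth was 19.3 to 28.6 M reads (mega-reads) in PBS and 4.16 to 7.76 M reads in HT, so that 1 read was worth 0.422 to 0.651 normalized reads in PBS and 1.58 to 2.88 in HT. Depth and tumor therefore cannot be told apart between these groups. The LT libraries were as shallow as those of HT, at 3.49 to 7.24 M reads. They gave 31 genes higher than PBS (0.247% of all genes) and 49 lower (0.39%). Whether depth caused any call in HT was not tested. The HT libraries C48, C54 and C55 stood apart from the other 5 in many genes, with estimated library weights of 0.42, 0.15 and 0.10, and PBS mouse C4 was the lowest PBS mouse in many abundant genes, with a weight of 0.45. Results that rest on these 3 HT libraries are given with and without them.

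HT muscle differed widely from PBS muscle. In the limma fit, 2069 genes (16.5%) were higher in HT and 2071 (16.5%) lower, at a Benjamini-Hochberg adjusted p under 0.05, and the median log2 fold change over all genes was 0.0003. Of these, 718 were higher and 823 lower by at least 1.5-fold. Without C48, C54 and C55, 943 genes (7.5%) were higher and 1085 (8.63%) lower, and 1752 of these 2028 genes were also called, in the same direction, with all 8 HT mice. List counts of HT against PBS given below stand beside 16.5% of all genes in each direction. Those without C48, C54 and C55 stand beside 7.5% higher and 8.63% lower. All 8 HT mice lay above all 8 PBS mice in 226 genes (1.8%) and below them in 210 (1.67%). Log2 fold changes here are differences of log2(normalized reads + 1), which understate the changes of genes with few reads.

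Among the genes whose groups were fully apart, the highest changes were in genes of granulocytes, the vessel wall and red cell precursors. Slfn4, a Schlafen gene of myeloid cells, was at 2.80 to 12.2 normalized reads (median 5.51) in PBS and 49.2 to 146 (median 86.3) in HT, a 13.8-fold difference (log2 fold change 3.79 ± 0.41 SE, adjusted p = 1.2e-08). Ifitm1, an interferon-inducible membrane protein that blocks virus entry, was at 6.03 to 14.7 (median 10.3) in PBS and 54.4 to 182 (median 80.6) in HT, 7.91-fold higher (adjusted p = 2.4e-08). Alas2, the first enzyme of heme synthesis in red cell precursors, was at 66.0 to 254 (median 109) in PBS and 474 to 1834 (median 861) in HT, 7.29-fold higher (adjusted p = 4.5e-08). Every HT mouse exceeded every PBS mouse in these genes, and in the PBS libraries Slfn4 rested on few reads. The lowest changes were in interferon-induced GTPases, in Nmrk2, an NAD salvage kinase of muscle, and in Foxo6os, an RNA antisense to Foxo6. Foxo6os was at 186 to 382 (median 252) in PBS and 5.52 to 88.6 (median 39.03) in HT, 6.74-fold lower (adjusted p = 4.7e-07), with C55 the lowest mouse. The sources used here do not say whether counting used strand, so that reads of Foxo6 and of its antisense RNA may not have been separated.

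**Figure D1:**
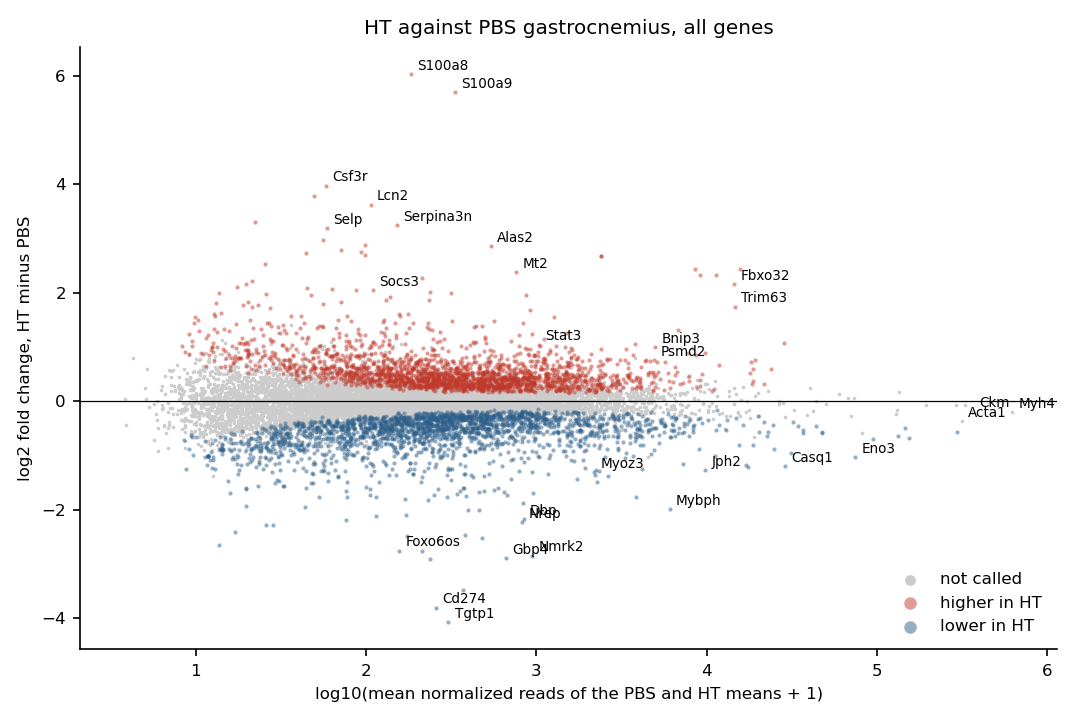
Log2 fold change of HT minus PBS (vertical axis) against the mean level of the 2 groups (log10 of normalized reads + 1, horizontal axis) for all 12573 genes, each a point. Red points are the 2069 genes higher and blue points the 2071 lower at an adjusted p under 0.05; the genes furthest from 0 include S100a8 above and Tgtp1 below, while the abundant muscle genes Acta1, Myh4 and Ckm lie near 0 and did not pass.

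The ubiquitin ligases of atrophy rose in part of the HT mice. Fbxo32 (chromosome 15, 58039275 to 58078288, minus strand, GRCm39) was at 2160 to 4891 normalized reads (median 3370) in PBS and at 3413 to 67298 (median 16258) in HT, 4.47-fold higher (log2 fold change 2.16 ± 0.42, adjusted p = 0.00022). Trim63 (chromosome 4, 134042431 to 134056940, plus strand) was at 2752 to 5237 (median 3302) in PBS and 2951 to 86381 (median 9917) in HT, 3.35-fold higher (1.75 ± 0.45, adjusted p = 0.0034). Both genes ran through the HT mice in a wide range. Trim63 was at 2951, 3265 and 3787 in C38, C46 and C37, all within the PBS range, at 6762 and 13071 in C60 and C62, and at 22676, 66005 and 86381 in C48, C54 and C55. For Fbxo32 the HT mice within the PBS range were C46 and C38, and the highest were again C55, C54 and C48, at 67298, 63494 and 28330. Without these 3 mice the log2 fold change of Fbxo32 was 1.11 (adjusted p = 0.02) and that of Trim63 was 0.50 (adjusted p = 0.26), so the call of Trim63 rested on them. With only HT and PBS libraries in the fit the adjusted p of Trim63 was 0.05.

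Of 38 atrophy ligases and adaptors, 9 (23.7%) were higher and 4 (10.5%) lower in HT, with a median log2 fold change of 0.14, and 5 were higher and 2 lower without the 3 mice. Beside the share of 16.5% among all genes, the list as a whole moved little. Asb11, a muscle adaptor of cullin ligases, was 1.44-fold higher (adjusted p = 0.0004), with 7 of 8 HT mice above the highest PBS mouse. Nedd4l, a ligase for ion channels, was at 257 to 307 (median 296) in PBS and 296 to 579 (median 417) in HT, 1.37-fold higher (adjusted p = 0.0014). In the opposite direction, Stub1 (CHIP), which tags misfolded clients of heat shock proteins, was at 949 to 1420 (median 1250) in PBS and 500 to 924 (median 815) in HT, 1.59-fold lower (adjusted p = 7e-06), and the groups did not overlap. Fbxo40, which targets the insulin receptor substrate in muscle, was 1.22-fold lower (adjusted p = 0.0082, and 0.11 without the 3 mice). The log2 fold changes of Asb2, Klhl41 and Nedd4 were 0.25, 0.13 and 0.16, and these genes did not pass.

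The proteasome was the list with the largest share of higher members among the breakdown genes. Of 38 subunits, 30 (78.9%) were higher and 0 lower, with a median log2 fold change of 0.49, against 12 higher and a median of 0.19 without C48, C54 and C55. Psmd2, a subunit of the base of the 19S cap that binds ubiquitin, was at 2413 to 4029 (median 3553) in PBS and 3447 to 9917 (median 5658) in HT, 1.7-fold higher (log2 fold change 0.77 ± 0.15, adjusted p = 0.00021). Its values were 8743, 9198 and 9917 in C48, C54 and C55 and 3447 to 6004 in the other 5 mice, where C46 and C37 lay within the PBS range. Psmd14, the deubiquitinase of the 19S lid, was 1.58-fold higher (adjusted p = 0.0002). Usp14, the deubiquitinase bound to the proteasome, was at 587 to 726 (median 664) in PBS and 746 to 2142 (median 979) in HT, 1.78-fold higher (adjusted p = 5.7e-05), and it was above every PBS mouse in all 8 HT mice. The catalytic subunits Psmb5, Psmb6 and Psmb7 had log2 fold changes of 0.14, 0.11 and 0.20 and did not pass.

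Averaged over its members, the proteasome list was 0.73, 1.00 and 1.26 log2 units above the PBS mean in C48, C54 and C55, 0.42 in C62, 0.24 in C60 and −0.02 to 0.09 in C37, C38 and C46, while single PBS mice ran from −0.10 to 0.13. The last 3 HT mice were therefore within the PBS range. Among 31 genes of ubiquitin and its conjugation, 15 (48.4%) were higher and 3 lower, and 7 and 1 without the 3 mice. Ube2q2, a conjugating enzyme, was above all PBS mice in all 8 HT mice (1.36-fold, adjusted p = 0.00058), and Ube2g1, which acts in the breakdown of proteins from the endoplasmic reticulum, was 1.32-fold higher (adjusted p = 0.00093). Usp2, a deubiquitinase under the clock, fell by 0.69 on the log2 scale (adjusted p = 0.0016, and 0.085 without the 3 mice).

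Among 45 genes of autophagy, mitophagy and the lysosome, 14 (31.1%) were higher and 0 lower, with a median log2 fold change of 0.17, and without the 3 mice 6 were higher and 2 lower. Bnip3, a mitophagy receptor of the outer mitochondrial membrane, was at 2642 to 3242 (median 2800) in PBS and 3358 to 19238 (median 4395) in HT, 2.01-fold higher (log2 fold change 1.01 ± 0.21, adjusted p = 0.00046). All 8 HT mice lay above the PBS mice, and C55 and C54 far above the others. Its relative Bnip3l was 1.57-fold higher (adjusted p = 0.00011), Map1lc3b (LC3B), which coats the autophagosome, 1.67-fold (adjusted p = 0.00041) and Nbr1, a cargo receptor, 1.51-fold (adjusted p = 0.0002). These 3 genes also passed without C48, C54 and C55, with log2 fold changes of 0.41, 0.33 and 0.32. Lamp1, a protein of the lysosomal membrane, and Pink1, a kinase that marks damaged mitochondria, had log2 fold changes of 0.17 and −0.20 and did not pass.

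**Figure D2:**
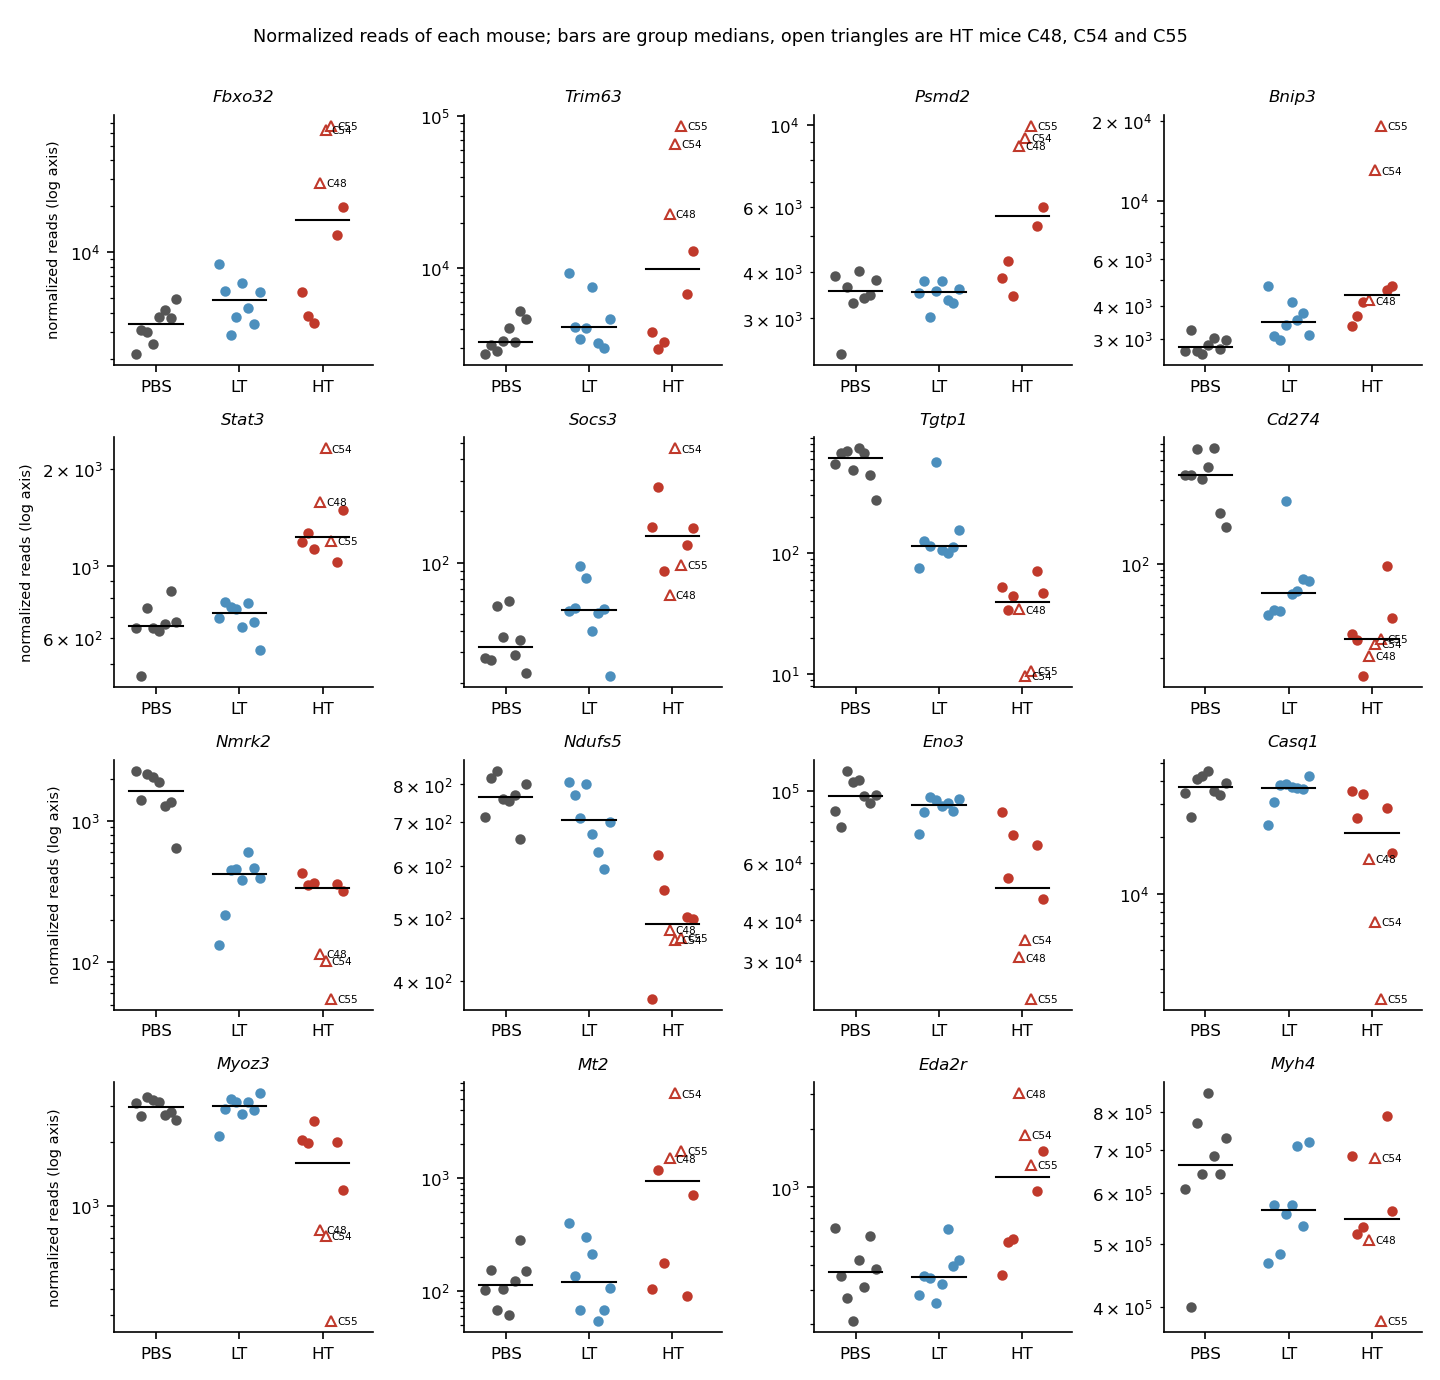
Normalized reads (log axis, each panel on its own scale) of 16 genes in the 8 PBS, 8 LT and 8 HT mice, each mouse a point and each group median a bar; open triangles mark the HT mice C48, C54 and C55. Fbxo32, Trim63, Psmd2 and Mt2 range widely among HT mice and are highest in the marked mice, Stat3, Tgtp1, Cd274 and Ndufs5 separate all 8 HT from all 8 PBS mice, and the ranges of Myh4 overlap, with C55 the lowest of all.

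FoxO- and glucocorticoid-responsive genes other than the ligases were mixed. Of 30 measured, 8 (26.7%) were higher and 2 lower, with a median of 0.23, and the number higher was 5 without C54 and 3 without C48, C54 and C55. Eif4ebp1, the repressor of cap-dependent translation, was at 353 to 639 (median 426) in PBS and 544 to 6090 (median 927) in HT, 2.94-fold higher (adjusted p = 0.00042, and 0.016 without the 3 mice). The metallothioneins Mt1 and Mt2, zinc-binding proteins, were 3.9-fold (adjusted p = 0.0085) and 5.24-fold (adjusted p = 0.0053) higher. Mt2 was at 60.7 to 281 (median 112) in PBS and 89.1 to 5608 (median 934) in HT, where C60, C37 and C46 lay within the PBS range and C54 was the highest. Without the 3 mice neither metallothionein passed (adjusted p = 0.35 for Mt1 and 0.21 for Mt2). Of the 13 genes of metallothioneins and zinc transport, 5 (38.5%) were higher and 1 (7.69%) lower, and 2 and 1 without the 3 mice. Among those higher was the zinc importer Slc39a14 (ZIP14), 2.13-fold higher (adjusted p = 0.005, and 0.054 without the 3 mice), at 1191 in its highest HT mouse and 119 in its lowest. Pdk4, which shuts off pyruvate oxidation, Fkbp5, a chaperone induced by glucocorticoids, and Foxo1 itself had log2 fold changes of 0.98, 0.67 and 0.20 and did not pass.

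Averaged over the list, genes of the IL-6 family and STAT3 were higher in each of the 8 HT mice than in any PBS mouse. Of 36 measured, 15 (41.7%) were higher and 3 lower, 8 and 2 without the 3 mice, and 6 had all 8 HT mice above all 8 PBS mice. Stat3 itself (chromosome 11, 100777632 to 100830366, minus strand) was at 459 to 839 (median 656) in PBS and 1035 to 2314 (median 1234) in HT, 2.07-fold higher (log2 fold change 1.05 ± 0.13, adjusted p = 2.5e-07). Osmr, the receptor subunit for oncostatin M, was at 108 to 177 (median 136) in PBS and 251 to 430 (median 329) in HT, 2.48-fold higher (1.31 ± 0.15, adjusted p = 7.8e-08). The groups did not overlap in either gene, and Osmr varied little among HT mice. Socs3, the feedback inhibitor of STAT3 signaling, was at 22.8 to 60.1 (median 32.4) in PBS and 65.1 to 464 (median 143) in HT, 4.16-fold higher (adjusted p = 5e-05). Its highest HT mice were C54 and C38, and its lowest was C48, so that its order among HT mice was not that of Trim63. Il4ra, the interleukin-4 receptor and a STAT3 target, was 2.72-fold higher (adjusted p = 1.8e-06). These 4 genes kept their calls without C48, C54 and C55, with log2 fold changes of 0.89 for Stat3, 1.31 for Osmr, 2.09 for Socs3 and 1.42 for Il4ra. Il11ra1, the interleukin-11 receptor, was 1.29-fold lower (adjusted p = 0.0056, and 0.094 without the 3 mice), and the kinase Jak1 had a log2 fold change of 0.08 and did not pass.

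Of 39 genes of NF-kB and the TNF receptors, 16 (41%) were higher and 2 lower, and 7 and 1 without the 3 mice. Tnfrsf1a (TNF receptor 1) was at 174 to 236 (median 206) in PBS and 291 to 485 (median 389) in HT, 1.91-fold higher (adjusted p = 2.8e-05). Il1r1, the signaling receptor of interleukin-1, was 2.15-fold higher (adjusted p = 5.5e-05), and Icam1, an adhesion molecule of endothelium, 2.04-fold (adjusted p = 6.2e-05). All 8 HT mice were above all PBS mice in each of these genes. Among 21 measured genes of the acute phase and complement, 15 (71.4%) were higher and 0 lower (14 and 0 without the 3 mice), with a median log2 fold change of 0.78. C4b, complement component 4, was at 60.5 to 115 (median 96.5) in PBS and 251 to 701 (median 311) in HT, 3.66-fold higher (adjusted p = 7.3e-06). Steap4, a metal reductase induced by inflammation, was higher by 1.43-fold in HT (adjusted p = 3.2e-05) and by a log2 fold change of 0.44 in LT (adjusted p = 0.0051). The complement genes C1qa and C1qb, made by macrophages, had log2 fold changes of 0.22 and 0.32 and did not pass.

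Most interferon gamma-induced genes were lower, unlike the members called in the IL-6, NF-kB and acute phase lists, most of which were higher. Of 40 measured, 27 (67.5%) were lower and 1 higher, with a median log2 fold change of −0.99, and 19 had all 8 HT mice below all 8 PBS mice. Without C48, C54 and C55 23 were lower and the median was −0.94. The windows from 250 bases before to 50 bases after the start are shown for 2 genes. These had the smallest p in the list among members with a promoter entry. Tgtp1, a T cell-specific GTPase and the gene with the lowest change, held both motifs marked here, next to each other. Cd274 (PD-L1), the immune checkpoint ligand and the next lowest, held neither. Capitals mark TTCNNNGAA, the core letters of a STAT site, and TTTC followed by any 2 bases and TTTC, the core of the interferon-stimulated element, searched on both strands. The sequences are those of RefSeq on GRCm38.p6, read 5′ to 3′ along the gene, at chr11:48992197-48992496 on the minus strand for Tgtp1 and chr19:29367188-29367487 on the plus strand for Cd274.
Tgtp1: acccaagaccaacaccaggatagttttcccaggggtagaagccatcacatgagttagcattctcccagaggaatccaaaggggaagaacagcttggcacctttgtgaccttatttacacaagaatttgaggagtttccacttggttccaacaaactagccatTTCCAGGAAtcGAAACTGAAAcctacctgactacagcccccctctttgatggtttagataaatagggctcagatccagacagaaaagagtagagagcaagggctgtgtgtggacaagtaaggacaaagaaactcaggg
Cd274: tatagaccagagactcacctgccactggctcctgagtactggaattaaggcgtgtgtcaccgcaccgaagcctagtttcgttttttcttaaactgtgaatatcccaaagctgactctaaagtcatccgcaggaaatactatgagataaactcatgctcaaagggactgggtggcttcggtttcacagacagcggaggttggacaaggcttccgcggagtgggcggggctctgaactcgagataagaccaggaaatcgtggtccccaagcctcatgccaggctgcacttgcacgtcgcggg
Counted from 1 at the 5′ end, TTCNNNGAA lay at bases 163 to 171 of the Tgtp1 window and the interferon-stimulated element core, on the opposite strand, at bases 174 to 183, without overlap.

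Promoters matched 28 of the 40 genes, of which 9 (32.1%) held TTCNNNGAA and 11 (39.3%) the interferon-stimulated element core. Among all 27025 promoters of the table the shares were 8.47% and 3.49%, and among the 9993 of measured genes 6.83% and 2.91%. The type I interferon list had shares of 21.2% and 36.4%. The NF-kB list, most of whose called members were higher, had 28.1% and 9.38%. Among 29 promoters of the IL-6 list, 3 (10.3%) held TTCNNNGAA, and those of Stat3 and Osmr did not. A match is a string of letters and not a known site.

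Tgtp1 was at 277 to 734 (median 610) in PBS and 9.68 to 71.0 (median 39.2) in HT, 16.6-fold lower (log2 fold change −4.06 ± 0.47, adjusted p = 7.1e-08), with C54 and C55 the lowest mice. Cd274 was at 189 to 736 (median 463) in PBS and 14.6 to 97.7 (median 27.5) in HT, 13.9-fold lower (−3.80 ± 0.39, adjusted p = 5.2e-09), with C46 the lowest mouse. The groups did not overlap in either gene. The near-identical Tgtp2 and the guanylate-binding proteins Gbp2, Gbp3 and Gbp5, GTPases that attack the vacuoles of microbes, were 5.69- to 11.1-fold lower, but reads of such close copies may have been divided between them by the counting. Gbp3 was at 178 to 661 (median 451) in PBS and 31.3 to 90.6 (median 52.0) in HT (adjusted p = 3.1e-07). Ifngr1, the binding subunit of the interferon gamma receptor, was 1.19-fold higher (adjusted p = 0.012). The class I molecules H2-K1, H2-D1 and B2m, which interferon gamma also induces, had log2 fold changes of −0.13, −0.09 and −0.23 and did not pass.

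The interferon gamma list was lower in LT as well, with 21 of its 40 genes lower against PBS where 0.39% of all genes were, and a median log2 fold change of −0.82. The medians in mice taken 1 and 2 weeks after injection, whose libraries were as deep as those of PBS, were −1.06 and −0.62. HT against LT had 5 members lower and 0 higher, and 0 lower without C48, C54 and C55. The list value of single HT mice ran from −1.50 to −0.84 and that of PBS mice from −0.55 to 0.43. Among LT mice, C44 at 0.24 lay within the PBS range, and the others ran from −1.23 to −0.82. Of 39 type I interferon-induced genes, 19 (48.7%) were lower and 4 higher, 10 and 2 without the 3 mice, and 2 were higher without C55 or without PBS mouse C5, C6 or C8. Ifit3, an antiviral RNA-binding partner, was at 95.4 to 211 (median 129) in PBS and 12.3 to 112 (median 48.99) in HT, 2.98-fold lower (adjusted p = 0.0001), and Uba7, which activates the ubiquitin-like ISG15, 2.28-fold lower (adjusted p = 0.00015). Trim21, an intracellular antibody receptor and ligase, was 1.71-fold lower with no overlap (adjusted p = 5e-05). Ube2l6, which conjugates ISG15, was at 66.8 to 126 (median 81.8) in PBS and 129 to 360 (median 179) in HT, 2.25-fold higher (adjusted p = 8.2e-05), the opposite of Uba7.

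**Figure D3:**
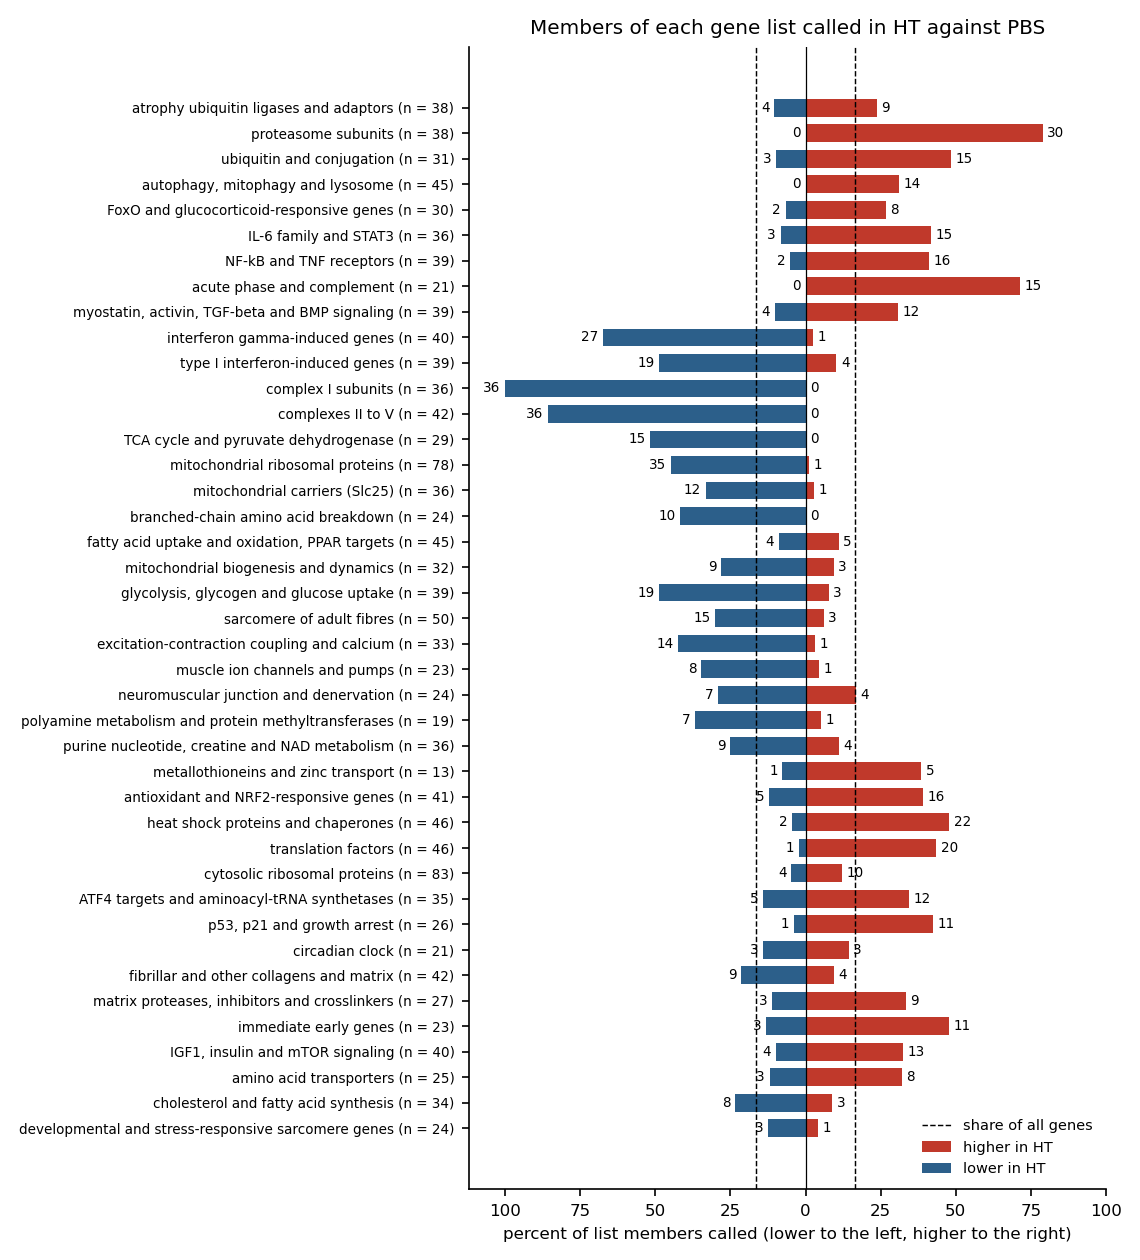
Percent of the measured members of each gene list called higher (red, to the right) or lower (blue, to the left) in HT against PBS, with the number of members beside each bar and dashed lines at the 16.5% of all genes called in each direction. Marker lists of cell types are not plotted; of the lists plotted, complex I (36 of 36 lower), complexes II to V (36 of 42), the proteasome (30 of 38 higher) and the acute phase genes (15 of 21 higher) reach furthest past the lines.

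Most respiratory chain genes were lower. All 36 complex I subunits were lower (100%), with log2 fold changes of −0.91 to −0.19 and a median of −0.52, and 15 of them had all 8 HT mice below all 8 PBS mice. Without the 3 mice 23 were lower and the median was −0.33. Ndufs5, an accessory subunit, was at 659 to 839 (median 767) in PBS and 376 to 624 (median 488) in HT, 1.56-fold lower (log2 fold change −0.64 ± 0.09, adjusted p = 1.8e-06). C37 was the lowest HT mouse in this gene at 376, followed by C54, C55 and C48 at 462 to 479. Ndufa13, another accessory subunit, was 1.54-fold lower (adjusted p = 6.4e-06), and Ndufa1, which is needed for assembly, 1.51-fold (adjusted p = 1.3e-06). Averaged over the list, complex I was −0.73, −0.72 and −0.72 in C54, C55 and C48, −0.40 to −0.26 in the other 5 HT mice and −0.14 to 0.19 in PBS mice, with no overlap. In LT the median log2 fold change of complex I was 0.00.

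Of 42 subunits of complexes II to V, 36 (85.7%) were lower and 0 higher, with a median of −0.49, and 25 were lower without the 3 mice. Cox5b, a subunit of cytochrome c oxidase, was at 3440 to 4827 (median 3866) in PBS and 1809 to 3426 (median 2323) in HT, 1.67-fold lower (adjusted p = 4e-06). Uqcr11 of complex III was 1.58-fold lower (adjusted p = 1.2e-05) and Atp5k of the ATP synthase 1.55-fold (adjusted p = 8.9e-06). HT and PBS mice did not overlap in these 3 genes. Sdha, the catalytic subunit of complex II, and Uqcrb of complex III had log2 fold changes of −0.32 and −0.19 and did not pass (adjusted p = 0.052 and 0.066).

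Other mitochondrial lists were lower in smaller shares. Of 29 genes of the TCA cycle and pyruvate dehydrogenase, 15 (51.7%) were lower and 0 higher, but 5 without the 3 mice. Fh1 (fumarase) was at 3264 to 4258 (median 3549) in PBS and 2138 to 3024 (median 2764) in HT, 1.36-fold lower with no overlap (adjusted p = 0.00026). Mpc2, a subunit of the pyruvate carrier of the inner membrane, was 1.48-fold lower (adjusted p = 0.00016), and Pcx, which makes oxaloacetate from pyruvate, 1.54-fold (adjusted p = 0.00031). Pdha1, a subunit of pyruvate dehydrogenase, had a log2 fold change of −0.15 and did not pass. Of 78 mitochondrial ribosomal proteins 35 (44.9%) were lower and 1 higher, 21 and 0 without the 3 mice, and Mrpl12 was 1.56-fold lower (adjusted p = 1.8e-05). That list had a narrow range among HT mice, from −0.21 to −0.11. Of 83 cytosolic ribosomal proteins, 10 (12%) were higher and 4 lower, and the number higher was 2 without C55, 6 without C54 and 0 without the 3 mice, and the number lower 2 without C54 or PBS mouse C5.

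Of 36 Slc25 carriers of the inner membrane 12 (33.3%) were lower and 1 higher, 9 and 2 without the 3 mice. Slc25a47, a carrier known mainly from liver, was at 73.0 to 98.6 (median 82.2) in PBS and 14.4 to 60.1 (median 27.3) in HT, 2.77-fold lower with no overlap (adjusted p = 8.4e-07), while Slc25a3, the phosphate carrier, had a log2 fold change of −0.15 and did not pass. Of 24 genes of branched-chain amino acid breakdown 10 (41.7%) were lower and 0 higher, 7 without the 3 mice. Bcat2, the mitochondrial aminotransferase of the first step, was at 753 to 1215 (median 980) in PBS and 320 to 842 (median 694) in HT, 1.62-fold lower (adjusted p = 0.00021), and Ivd, which acts on the leucine branch, 1.56-fold (adjusted p = 0.00055).

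Fatty acid genes did not share this direction. Of 45 genes of fatty acid uptake and oxidation 5 (11.1%) were higher and 4 (8.89%) lower, both shares under that of all genes, and 2 and 0 without the 3 mice. The number higher was 3 without C54, C55 or PBS mouse C2, C4, C6 or C10, and the number lower 2 without C48, C54 or PBS mouse C5 or C9. Fabp4, a fatty acid-binding protein of capillary endothelium and fat cells, was at 1507 to 2292 (median 1910) in PBS and 2661 to 4919 (median 3157) in HT, 1.72-fold higher (adjusted p = 3.9e-06). The fatty acid transporter Cd36 was 1.67-fold higher (adjusted p = 0.0013), and Lpl, which frees fatty acids from lipoproteins, had a log2 fold change of 0.17 and did not pass. Among 32 genes of mitochondrial biogenesis and dynamics 9 (28.1%) were lower and 3 (9.38%) higher, and 4 were lower without C54 or without all 3 mice. Esrra, a nuclear receptor that drives respiratory genes together with PGC-1alpha, was at 1034 to 1686 (median 1308) in PBS and 309 to 940 (median 824) in HT, 2.02-fold lower (adjusted p = 6.4e-05, log2 fold change −0.63 without the 3 mice, adjusted p = 0.0014). C54 and C55 were at 309 and 329 and the other 6 HT mice at 744 or more, all below the PBS mice.

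**Figure D4:**
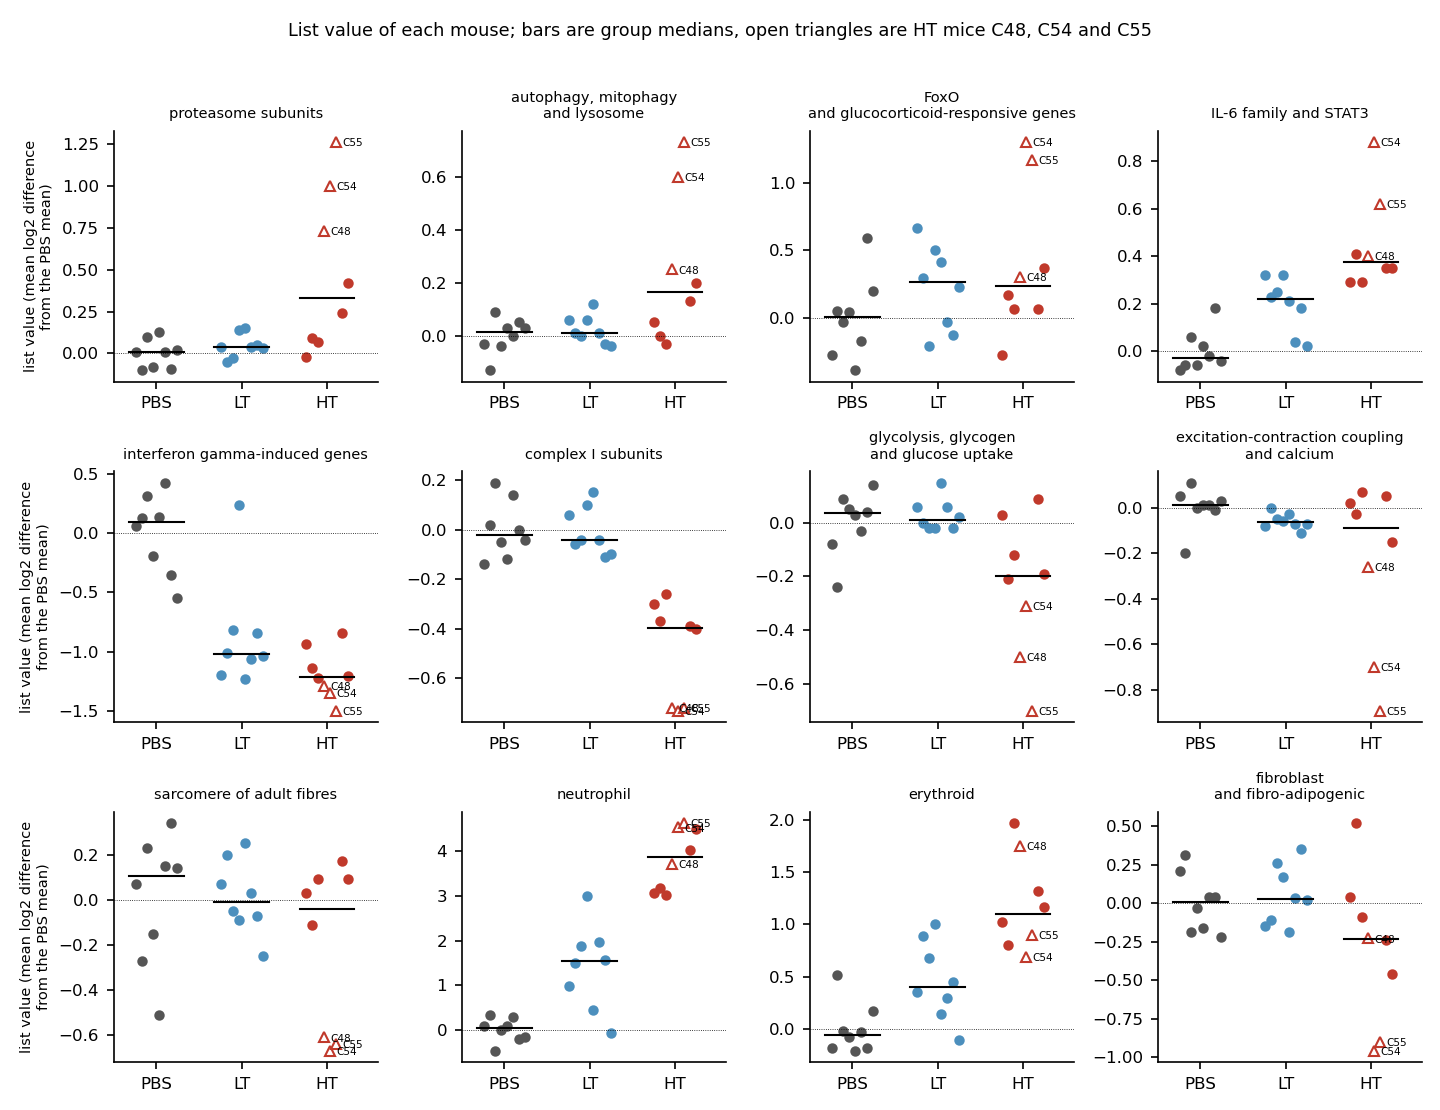
List value of each mouse (log2 difference from PBS, averaged over the members, vertical axis) for 12 gene lists in the 8 PBS, 8 LT and 8 HT mice, with group medians as bars and open triangles for C48, C54 and C55. The proteasome runs from −0.02 to 1.26 among HT mice, while complex I (−0.73 to −0.26), the interferon gamma list (−1.50 to −0.84) and the neutrophil list (3.01 to 4.63) keep all HT mice outside the PBS range.

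Glycolytic and contractile genes were lower most of all in C48, C54 and C55. Of 39 genes of glycolysis, glycogen and glucose uptake 19 (48.7%) were lower and 3 higher, and 8 and 2 without the 3 mice. Eno3, the muscle enolase (chromosome 11, 70548002 to 70553339, plus strand), was at 77654 to 115027 (median 96450) in PBS and 23052 to 85966 (median 50215) in HT, 2.03-fold lower (log2 fold change −1.02 ± 0.18, adjusted p = 6.4e-05). Its lowest mice were C55, C48 and C54 at 23052, 30808 and 34930, and the highest HT mouse, C37, lay within the PBS range. Pgam2, the muscle phosphoglycerate mutase, was 2.3-fold lower (adjusted p = 0.00033), Tpi1, triose phosphate isomerase, 1.93-fold (adjusted p = 4.3e-05) and Slc16a3, the exporter of lactate, 2.07-fold (adjusted p = 3.6e-05). These 4 genes passed without the 3 mice too, with log2 fold changes of −0.67 to −0.54. Ugp2, which makes UDP-glucose for glycogen, was 1.66-fold higher (adjusted p = 0.0014, and 0.12 without the 3 mice), and Gyg, the primer of glycogen, 1.4-fold (adjusted p = 0.00018). Aldoa (aldolase) and Pygm (glycogen phosphorylase) had log2 fold changes of −0.06 and −0.27 and did not pass.

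Of 50 genes of the adult sarcomere 15 (30%) were lower and 3 higher, but 5 and 2 without the 3 mice, and the median moved from −0.22 to 0.08. Myoz3, a calcineurin-binding protein of the Z disc in fast fibres, was at 2574 to 3300 (median 2943) in PBS and 282 to 2546 (median 1595) in HT, 2.46-fold lower (adjusted p = 0.00014). It kept its call without C48, C54 and C55 (log2 fold change −0.62, adjusted p = 0.0011). Mylpf, the fast regulatory light chain, was 1.59-fold lower (adjusted p = 0.00046). Acta1 (skeletal actin), Myh4 (myosin of IIB fibres) and Tnnt3 (fast troponin T) had log2 fold changes of −0.36, −0.20 and −0.07 and did not pass. Of the 13 measured markers of slow fibres 2 (15.4%) were higher and 0 lower, and the slow myosin Myh7 ranged from 479 to 9424 in PBS and from 1105 to 10250 in HT. The slow fibre list value was −1.30, −1.36 and −0.23 in C48, C54 and C55 and 0.20 to 0.82 in the rest of HT. In PBS it was −2.13 in C8 and −0.54 to 0.74 in the rest. The median log2 fold change of the list was −0.17, and 0.46 without C48, C54 and C55. Slow fibre markers thus varied within both groups, and their part in other results was not tested.

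Of 33 genes of excitation-contraction coupling and calcium handling 14 (42.4%) were lower and 1 higher, against 2 lower and 0 higher without the 3 mice. Jph2, which holds the sarcoplasmic reticulum to the T-tubule, was at 8690 to 16031 (median 13616) in PBS and 1251 to 10222 (median 7095) in HT, 2.39-fold lower (adjusted p = 0.00067, and 0.015 without the 3 mice). The log2 fold change of Casq1, the calcium store protein of fast fibres, was −1.19 ± 0.29 (adjusted p = 0.0019) and −0.44 without the 3 mice (adjusted p = 0.05). Casq1 was at 2770, 7059 and 15294 in C55, C54 and C48, at 16510 in C62 and at 25467 to 35442 in the other 4 HT mice, beside 25663 to 45207 in PBS. The calcium release channel Ryr1 and the pump Atp2a1, its partners in the same membrane, had log2 fold changes of −0.15 and −0.07 and did not pass. Of 23 muscle ion channels and pumps 8 (34.8%) were lower and 1 higher, 4 and 1 without the 3 mice. Kcnc1, a fast potassium channel, was at 965 to 1475 (median 986) in PBS and 258 to 866 (median 556) in HT, 2.06-fold lower with no overlap (adjusted p = 0.00022). Slc12a2, the chloride importer NKCC1, was 1.8-fold higher (adjusted p = 1.8e-05).

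At the neuromuscular junction, 7 of 24 genes (29.2%) were lower and 4 higher, and 2 and 0 without the 3 mice. The number higher was 1 without C54 or without C55. Chrne, the adult epsilon subunit of the acetylcholine receptor, was at 172 to 267 (median 210) in PBS and 55.2 to 231 (median 125) in HT, 1.95-fold lower (adjusted p = 0.00063, and 0.061 without the 3 mice). Dok7, the activator of the receptor kinase of the synapse, was 1.83-fold lower (adjusted p = 0.0015, and 0.086 without them). Chrnb1, the beta subunit, was at 357 to 538 (median 509) in PBS and 580 to 1123 (median 652) in HT, 1.42-fold higher with no overlap (adjusted p = 0.0035, and 0.068 without them).

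Some genes of polyamine and high-energy phosphate metabolism were lower, while most did not pass. Of 19 genes of polyamine metabolism and protein methyltransferases 7 (36.8%) were lower and 1 higher, 4 and 1 without the 3 mice. Smox, which oxidizes spermine, was at 1779 to 3432 (median 2651) in PBS and 550 to 1907 (median 1211) in HT, 2.33-fold lower (adjusted p = 3.6e-05, log2 fold change −0.77 without the 3 mice, adjusted p = 0.0037). Amd1, which supplies the propylamine donor, was 1.5-fold lower (adjusted p = 0.0074), and Odc1, which makes putrescine, 1.9-fold higher (adjusted p = 0.0083). Neither passed without the 3 mice (adjusted p = 0.36 and 0.42). Among 36 genes of purine nucleotide, creatine and NAD metabolism 9 (25%) were lower and 4 higher, 4 and 1 without the 3 mice, and 2 were higher without C54 or C55. Ckmt2, the mitochondrial creatine kinase, was 2.0-fold lower (adjusted p = 0.0021, and 0.14 without the 3 mice) and Ak1, adenylate kinase, 1.74-fold (adjusted p = 0.00021, and 0.0069). Cd38, an enzyme of cell surfaces that consumes NAD, was at 30.6 to 73.5 (median 53.4) in PBS and 83.4 to 157 (median 117) in HT, 2.21-fold higher with no overlap (adjusted p = 1.8e-05).

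Stress and synthesis genes were called higher more often than lower. Of 46 heat shock proteins and chaperones 22 (47.8%) were higher and 2 lower, of 46 translation factors 20 (43.5%) and 1, and of 41 antioxidant genes 16 (39%) and 5. Without C48, C54 and C55 the numbers higher and lower were 6 and 0, 7 and 0, and 5 and 4. The antioxidant genes lower were 3 without C54, C55, PBS mouse C5 or PBS mouse C9. Hsp90ab1, the constitutive HSP90, was at 8432 to 17395 (median 14417) in PBS and 15880 to 34968 (median 22607) in HT, 1.71-fold higher (adjusted p = 0.00013). Eif3j1, a subunit of initiation factor eIF3, was at 1939 to 2551 (median 2208) in PBS and 2719 to 5670 (median 3966) in HT, 1.71-fold higher with no overlap (adjusted p = 2.2e-06). Nfe2l2 (NRF2), the regulator of antioxidant genes, was at 423 to 603 (median 501) in PBS and 606 to 2023 (median 767) in HT, 1.83-fold higher with no overlap (adjusted p = 0.00019). Its target Gclm, which limits glutathione synthesis, was 2.23-fold higher (adjusted p = 0.00075). Each of these 4 genes passed without the 3 mice, with log2 fold changes of 0.45, 0.55, 0.49 and 0.40. Hspa5, the chaperone of the endoplasmic reticulum, had a log2 fold change of 0.16 and did not pass.

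Of 35 measured ATF4 targets and tRNA synthetases 12 (34.3%) were higher and 5 lower, but 3 were higher without C54, 3 without C55 and 2 without the 3 mice. Chac1, which degrades glutathione, was at 126 to 547 (median 270) in PBS and 283 to 1573 (median 850) in HT, 2.8-fold higher (adjusted p = 0.0011, and 0.0059 without the 3 mice). Wars, the tryptophan synthetase, which interferon gamma induces, was 1.9-fold lower (adjusted p = 2.6e-05) and likewise lower in LT (log2 fold change −0.99, adjusted p = 0.0006). Ddit3 (CHOP), a stress-induced transcription factor, was 1.5-fold lower (adjusted p = 0.0084, and 0.16 without the 3 mice). Of 26 genes of p53 and growth arrest 11 (42.3%) were higher and 1 lower, 7 higher without C55 and 2 without the 3 mice. Eda2r, the ectodysplasin A2 receptor, was at 207 to 618 (median 368) in PBS and 356 to 3030 (median 1128) in HT, 2.73-fold higher (adjusted p = 0.00086, and 0.05 without the 3 mice), with C48 the highest mouse. Of 21 clock genes 3 (14.3%) were higher and 3 (14.3%) lower, both shares under the 16.5% of all genes. Dbp, a clock output factor, was at 964 to 2113 (median 1131) in PBS and 30.9 to 754 (median 389) in HT, 4.49-fold lower with no overlap (adjusted p = 0.00032), while its relative Tef had a log2 fold change of −0.06 and did not pass.

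Among 39 genes of myostatin, activin, TGF-beta and BMP signaling 12 (30.8%) were higher and 4 lower. Mstn (myostatin), the muscle-made inhibitor of muscle growth, was at 779 to 1216 (median 1020) in PBS and 1057 to 5579 (median 1484) in HT, 1.92-fold higher (adjusted p = 0.00097, log2 fold change 0.44 without the 3 mice, adjusted p = 0.028). C55 and C54, at 5579 and 3988, were far above the other 6 HT mice, at 1057 to 1678. Inhbb, which forms activin B, was at 7.90 to 18.2 (median 11.5) in PBS and 22.99 to 73.99 (median 30.97) in HT, 2.74-fold higher with no overlap (adjusted p = 6.5e-05). Acvr2a, a receptor for both ligands, was at 282 to 543 (median 497) in PBS and 615 to 900 (median 704) in HT, 1.62-fold higher with no overlap (adjusted p = 0.00019).

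Single matrix genes were called in both directions, while the list of collagens was called at shares not far from those of all genes. Of 42 collagens and other matrix genes 9 (21.4%) were lower and 4 (9.52%) higher, beside 16.5% of all genes in each direction. The number lower was 15 without C38 and 3 without C48, C54 and C55, where 8.63% of all genes were lower. Col6a2, a chain of the collagen VI that surrounds fibres, was at 402 to 895 (median 533) in PBS and 102 to 472 (median 215) in HT, 2.56-fold lower (adjusted p = 4e-05), and Col6a1 2.14-fold (adjusted p = 0.0002). C38 was the highest HT mouse for Col6a2 and C54 the lowest. Fbln5, an elastic fibre protein, was 1.71-fold higher with no overlap (adjusted p = 1.3e-05). The fibrillar collagen chains Col1a2 and Col3a1 had log2 fold changes of −0.65 and −0.67 and did not pass. Of 27 matrix proteases, inhibitors and crosslinkers 9 (33.3%) were higher and 3 lower, 7 and 0 without the 3 mice, and 1 was lower without C54. Mmp9, a gelatinase stored in neutrophils, was at 9.77 to 25.3 (median 14.8) in PBS and 42.7 to 108 (median 70.9) in HT, 4.27-fold higher (adjusted p = 5.2e-07), and Adamts9, a protease of proteoglycans, 2.21-fold (adjusted p = 1.4e-05), both with no overlap.

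Markers of some other cell types were called in larger shares than the 16.5% of all genes. All 7 measured neutrophil markers (of 31 listed) were higher, with a summed level of 37.3 to 72.5 normalized reads in PBS and 718 to 2723 in HT, and the list value was 3.01 to 4.63 in HT mice. Of 20 erythroid markers 13 (65%) were higher and 3 lower (1 without C54 or without C55), with sums of 30363 to 55041 and 62854 to 184923. Of 26 endothelial markers 15 (57.7%) were higher, with sums of 9575 to 16811 and 13300 to 18210, among them Cldn5, a tight junction protein of vessels, 2.14-fold (adjusted p = 5.4e-06). Of 30 macrophage markers 11 (36.7%) were higher and 0 lower, 5 higher without C38, 6 without PBS mouse C5, 7 without PBS mouse C8 and 6 without the 3 HT mice, with sums of 1839 to 4339 and 3318 to 8365. Clec7a, a receptor for fungal glucans on myeloid cells, was 4.67-fold higher (adjusted p = 8.3e-06). Of 22 fibroblast markers 6 (27.3%) were lower and 1 (4.55%) higher, with sums of 23450 to 36530 and 16707 to 32462. The number of them lower was 11 without C38, 3 without C54, without C55 or without PBS mouse C4, and 1 without the 3 HT mice. Of 19 adipocyte markers 3 (15.8%) were higher and 1 (5.26%) lower. Of 15 markers of tendon, nerve and smooth muscle 0 were higher and 1 (6.67%) lower. Of 12 measured markers of proliferation 1 (8.33%) was higher and 1 (8.33%) lower. All these shares were under 16.5%. No marker value was exactly 0. In whole muscle, fewer cells of a type and less RNA per cell cannot be told apart, and the part of these cells in the inflammatory, matrix and fatty acid results was not tested.

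HT also differed from LT at like depth, with 1250 genes (9.94%) higher and 1314 (10.5%) lower in HT. Without C48, C54 and C55 400 genes were called, 1486 without C54 and 1541 without C55. In this comparison 29 of 38 proteasome subunits were higher, and 1 without the 3 mice. Of 36 complex I subunits 34 were lower, and 17 without the 3 mice, and of 42 subunits of complexes II to V 36 and 15. Of 38 atrophy ligases and adaptors 6, Fbxo32 among them, were higher and 3 lower than in LT, and 0 in either direction without the 3 mice. Stat3 was 718 normalized reads at the median in LT against 1234 in HT (log2 fold change 0.96, adjusted p = 1.2e-05), and Fbxo32 was 4868 against 16258 (1.64, adjusted p = 0.0062). Nmrk2, by contrast, was 421 at the median in LT and 337 in HT (−0.73, adjusted p = 0.11) beside 1642 in PBS.

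**Figure D5:**
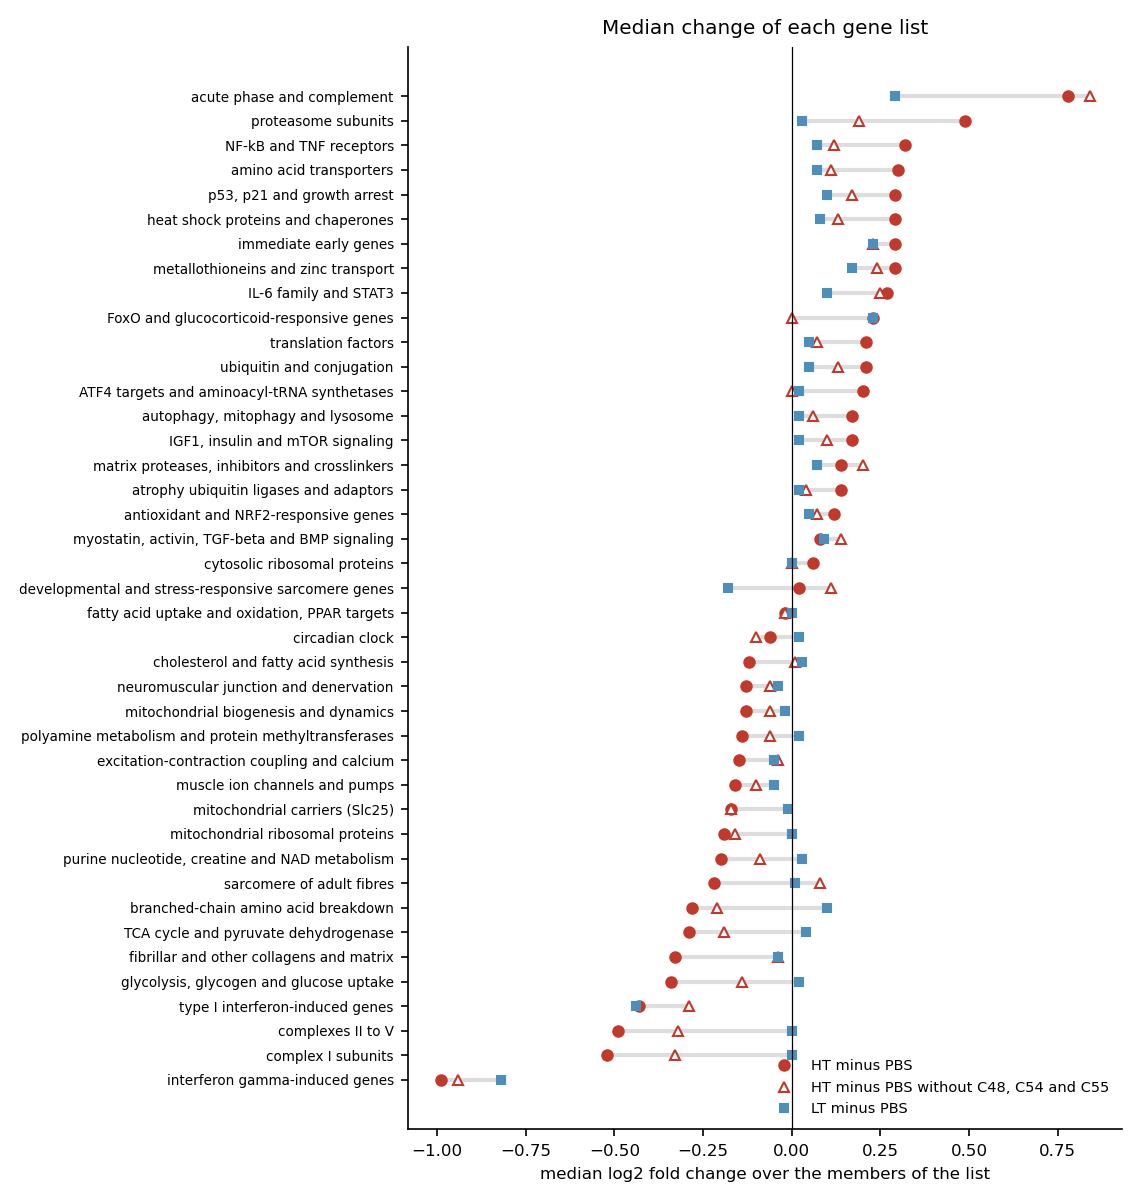
Median log2 fold change over the members of each gene list (horizontal axis) for HT minus PBS (red circles), HT minus PBS without C48, C54 and C55 (open triangles) and LT minus PBS (blue squares). The interferon gamma list is low in all 3 (−0.99, −0.94 and −0.82), complex I is low in both HT fits and at 0.00 in LT, and the proteasome falls from 0.49 to 0.19 when the 3 mice are left out.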

How the data were processed

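Polyadenylated RNA of the gastrocnemius was sequenced from 40 female mice, 1 library each, and the 8 PBS, 8 HT and, for comparison, 8 LT libraries carry the results. According to the submitters' processing notes and the methods, the authors aligned reads with STAR 2.7.8a and quantified genes in Partek Flow, with a filter on low reads. The deposited values are a signal per gene and library, estimated reads that the authors divided by a DESeq2 size factor, although the table is named as raw counts: 99.6% of the 502920 values are not whole and 0 are exactly 0. The notes list mm10 and mm39, and gene coordinates of 12237 of 12249 matched symbols overlapped those of GRCm39. Depth was estimated from the value of 1 read.

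log2(value + 1) entered a linear model over the 40 libraries of 5 groups, without covariates (limma 3.58.1, eBayes with trend, R 4.3.3; tables in Python 3.11.15), and p-values were Benjamini-Hochberg adjusted over all 12573 genes and called under 0.05. The test was checked on simulated data with 200 changed genes. Every group was drawn with the same spread, so the check does not cover a wider spread among HT mice. Genes named are the 10 highest and 10 lowest changes among called genes with non-overlapping groups and a mean of at least 50 in the higher group, and of each described list up to 4 called members per direction with the smallest p and up to 3 with the highest mean that did not pass, besides muscle markers. Further genes were set by name, whatever their rank. They include Trim63, Fbxo32, Mstn, Foxo1, Stat3, Socs3, Fkbp5, Pdk4, Mt1, Mt2, Nmrk2, Cd274 and Myh7. The members, lists, rules and the choice to leave out C48, C54 and C55 were made with earlier results of these data known, so a list's count is a description. List values average, over the members, the log2 difference of a mouse from PBS. Alternatives changed the pseudocount (to 4), the filter, the normalization, the samples fitted, library weights (limma), voom on approximate reads, thinning, and the mice left out. Nothing says which libraries were prepared together. The p-values of the main fit rest on a spread between mice pooled over the 5 groups, not on that of HT mice alone. The other deposited tables hold the authors' fold changes, p-values and enrichment results, and were not used, nor were male mice. Some genes are not reported here.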

Additional observations from a re-analysis of the deposited data

Results flagged for a closer look

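Single mice stood apart from the other 7 of their group in 33 of 402 checks of a gene or list in PBS or HT, where chance gives about 1 in 20. The measure is the gap to the nearest mouse as a share of the range of the group, set against the 95% critical value of Dixon for 8 mice.

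PBS mouse C4 was the lowest PBS mouse in Myh4 (399575 normalized reads against a median of 663370, gap 0.55), Psmd2 (2413 against 3553, 0.61), Lamp1 (5567 against 7345, 0.59), Stat3 (459 against 656, 0.53), Pygm (51630 against 79649, 0.53), Atp2a1 (204601 against 352906, 0.60) and Hsp90ab1 (8432 against 14417, 0.60). It was also lowest in the list values of excitation-contraction coupling (−0.20, gap 0.61) and of the muscle fibre markers (−0.37, gap 0.58).

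Other PBS mice were apart in 1 or 2 genes each. C11 was lowest in Nmrk2 (649, gap 0.54), C5 in C4b (60.5, 0.54), Cd38 (30.6, 0.54) and the acute phase list (−0.71, 0.73), C6 in the class I genes H2-K1 (735, 0.56) and H2-D1 (951, 0.56), and C9 in Chrnb1 (357, 0.66). C10 was highest in Slc39a14 (181, 0.63) and Kcnc1 (1475, 0.62), and in the immediate early list (0.50, 0.53). C8 was lowest in the slow myosin Myh7 (479 against a median of 7668, 0.66) and in the slow fibre list (−2.13, 0.55).

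Among HT mice, C55 was lowest in Foxo6os (5.52, gap 0.57) and highest in Fabp4 (4919, 0.59) and the cytosolic ribosomal list (0.45, 0.70). C54 was lowest in Il11ra1 (329, 0.62) and highest in Wars (561, 0.58) and Junb (429, 0.56), and C48 was highest in Chrnb1 (1123, 0.58). C62 was lowest in Tgtp2 (11.7, 0.57), C60 in Trim21 (20.1, 0.69), and C38 was highest in Fbln5 (377, 0.62) and in the matrix protease list (0.90, 0.67). C46 was highest in the mitochondrial ribosomal list (−0.11, 0.53).

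The change from PBS differed between HT and LT in 2564 genes, by the direct comparison of HT with LT.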

How the results depend on the processing

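No called gene named in the text changed direction under any alternative run. The count of 4140 genes called between HT and PBS was 2447 with only these groups in the fit, 2028 without C48, C54 and C55 and 1541 with a change of at least 1.5-fold required, and 3216 to 4483 when single mice were left out. The other alternatives gave 2970 (library weights) to 4176 (quantile normalization). Of 2564 genes called between HT and LT, 524 were called with only these groups, 1538 after thinning to the depth of the smallest library, 1292 with voom, 360 with library weights, 400 without C48, C54 and C55, and 1486 to 3158 when single mice were left out, with the lowest counts without C54 (1486) and C55 (1541). Of 80 genes called between LT and PBS, 45 were called after thinning, 46 with voom and 288 with library weights, and 44 (without PBS mouse C5) to 144 (without PBS mouse C4) when single mice were left out, with 50 without LT mouse C39 or C56, 47 without PBS mouse C8 and 46 without PBS mouse C9. List counts moved by over 1.5 times in 69 of 110 cases without C48, C54 and C55, 45 with no other groups fitted and 39 with library weights. Excitation-contraction genes lower, for example, were 14, and 5 with only HT and PBS fitted. The cause of these changes was not tested, beyond the fewer samples or genes some settings hold by construction. Of 114 named genes called between HT and PBS, 19 did not pass without C48, C54 and C55, and none was lost when single mice were left out. Amd1, Slc39a14 and Trim63 did not pass with only these groups in the fit (adjusted p = 0.062, 0.064 and 0.05), Amd1, Mt1 and Odc1 did not with library weights (0.086, 0.066 and 0.055), and Sdha did with quantile normalization (0.016). No paired analysis was possible because the mouse numbers are unique and the groups share none. Depth limits genes with few reads, such as the neutrophil markers in PBS.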

Other observations

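Immediate early genes moved in both directions. Of 23 measured, 11 (47.8%) rose and 3 (13%) fell in HT against PBS, against 16.5% of all genes in either direction, and 6 and 3 without C48, C54 and C55. Junb, a subunit of the AP-1 transcription factor, was at 43.01 to 91.15 normalized reads (median 55.8) in PBS and 104 to 429 (median 162) in HT, 2.78-fold higher (adjusted p = 0.00012), and Klf10, induced by TGF-beta, was at 150 to 277 (median 229) and 329 to 1181 (median 561), 2.61-fold higher (adjusted p = 4e-05). The groups did not overlap in either gene. Nr4a1, an orphan nuclear receptor, was at 1713 to 3933 (median 2470) in PBS and 723 to 1745 (median 1197) in HT, 2.1-fold lower (adjusted p = 0.00015), and Jund, also an AP-1 subunit, was 1.68-fold lower (adjusted p = 0.0033). Atf3, a stress-induced factor, ranged from 35.1 to 1191 in PBS and 33.2 to 253 in HT and did not pass.

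Of 40 genes of IGF1, insulin and mTOR signaling 13 (32.5%) were higher and 4 (10%) lower, and 6 and 4 without the 3 mice. Igfbp7, a secreted binding protein, was at 429 to 589 (median 550) in PBS and 730 to 1303 (median 921) in HT, 1.77-fold higher with no overlap (adjusted p = 3.1e-05), while Igfbp6, which binds IGF2, was at 353 to 629 (median 429) and 160 to 344 (median 261), 1.71-fold lower with no overlap (adjusted p = 0.00015). Slc2a4, the insulin-responsive glucose transporter, was 1.46-fold lower (adjusted p = 0.00087, and 0.057 without the 3 mice). Among 25 amino acid transporters 8 (32%) were higher and 3 (12%) lower (4 and 1 without the 3 mice), with the glutamine carrier Slc38a3 2.43-fold lower (adjusted p = 0.00063, and 0.053 without the 3 mice). Among 34 genes of cholesterol and fatty acid synthesis 8 (23.5%) were lower and 3 (8.82%) higher, 3 and 3 without the 3 mice, and 5 were lower without C55, C60 or PBS mouse C5 or C8, and 5 higher without C62. Mvk, mevalonate kinase, was 1.71-fold lower (adjusted p = 4e-05), and Elovl5, a fatty acid elongase, 1.61-fold higher (adjusted p = 8e-05). In the developmental sarcomere list, 3 of 24 genes (12.5%) were lower and 1 (4.17%) higher, both shares under the 16.5% of all genes, and 2 and 0 without the 3 mice. Its member cardiac actin Actc1 was at 4079 to 7695 (median 5798) in PBS and 387 to 4014 (median 2121) in HT, 3.41-fold lower with no overlap (adjusted p = 0.00018).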
